A study of Homo sapiens with 5 samples.

Results

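The baseline landscape of ribose methylation in human ribosomal RNA (rRNA) was described from the RiboMethSeq libraries labelled Mock and SCR, the 2 of the 5 deposited libraries whose labels name no ADAR gene. The cells of both are labelled PaTu, which names established human lines from cancers of the pancreas. The labels give no genotype, dose, time or passage for either library, do not say what Mock and SCR received, and do not say whether the libraries came from separate cultures. All 110 positions of the deposited table were taken, 41 in 18S, 2 in 5.8S and 67 in 28S rRNA, and no member was lost to a filter. Each label has 1 library, so no test was made between them and no p-value is given. The difference between Mock and SCR holds whatever the treatments changed together with the error of the assay, and these cannot be told apart. The table gives a methylation level from 0 to 1 and no counts, so the number of reads behind a level is not known.

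Most ribose methyl groups of eukaryotic rRNA are added by fibrillarin inside a ribonucleoprotein whose box C/D small nucleolar RNA (snoRNA) base-pairs with the rRNA. The nucleotide that pairs with the fifth base before the box D, or before the internal box D′, receives the methyl group. Box D reads CTGA in the DNA letters used here, and box D′ can differ from CTGA. RiboMethSeq hydrolyses RNA and counts fragment ends, and a methylated ribose protects the bond that follows it. A level near 1 is therefore read as ribosomes that nearly all carry the methyl group, and a level between the extremes as a mixed population. The formula of the level is not given, so this reading was not tested here. Methylated nucleotides are dense around the decoding site of the small subunit and the peptidyl transferase centre of the large subunit, the parts of the ribosome that read the codon and form the peptide bond.

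The 5.8S rRNA was the only rRNA whose own sequence could be placed beside its levels. Its 4 identical GENCODE transcripts (RNA5-8SN2, 153 bases) lie on chromosome 21 of GRCh38, the first at chr21:8212572-8212724 on the plus strand. They start 1 base after the first base of the numbering in the table, as found by pairing with the guide of position 75. The windows around the listed positions are shown 5′ to 3′, with the methylated base in capitals.
5.8S position 14: gactcttagcggTggatcactcggc
5.8S position 75: ttaatgtgaattGcaggacacattg
Their guides are shown with the longest stretch that is perfectly complementary to 5.8S rRNA in capitals. SNORD71 lies in an intron of AP1G1 (chr16:71758402-71758487, minus strand) and SNORD96A within RACK1 (chr5:181241814-181241892, minus strand, where an exon of at least 1 RACK1 transcript overlaps it).
SNORD71: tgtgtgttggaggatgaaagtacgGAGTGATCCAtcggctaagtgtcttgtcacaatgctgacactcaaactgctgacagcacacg
SNORD96A: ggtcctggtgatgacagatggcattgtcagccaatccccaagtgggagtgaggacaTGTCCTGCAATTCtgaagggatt
The stretch of SNORD71 covers 10 bases and pairs from position 14 onward. The stretch of SNORD96A covers 13 bases, the last being the C of its CTGA, and pairs from position 70 onward. It spans position 75 by construction, because the numbering was set from this pairing. Position 14 had a level of 0.776 in Mock and 0.787 in SCR. Position 75 was higher, with 0.903 in Mock and 0.909 in SCR. The gap between the 2 positions was far larger than the difference between the libraries at either.

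Guides are shown for some of the lowest positions and of the positions that share a guide, whose levels are described further on. Whether the levels depend on the guides was not tested. Capitals mark each CTGA beyond the first 14 bases, whether or not it acts as a box, and the fifth base before it. A box D′ with other letters is not marked. CTGA was searched on the RNA's own strand, with overlaps allowed. It was found in 97.3% of the 110 GENCODE snoRNAs of the guide families named here, and in 43.0% of the 149 snoRNAs named SNORA, which belong to the box H/ACA class and guide pseudouridine instead.
SNORD90, guide of 18S position 354: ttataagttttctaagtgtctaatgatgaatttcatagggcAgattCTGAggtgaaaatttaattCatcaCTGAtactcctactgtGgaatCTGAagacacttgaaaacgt
SNORD127, guide of 18S position 1447: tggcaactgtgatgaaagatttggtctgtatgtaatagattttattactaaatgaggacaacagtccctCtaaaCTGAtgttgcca
SNORD45A, a guide of 18S positions 159 and 172: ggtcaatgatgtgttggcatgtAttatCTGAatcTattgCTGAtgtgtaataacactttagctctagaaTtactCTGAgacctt
SNORD45C, a guide of 18S positions 159 and 174: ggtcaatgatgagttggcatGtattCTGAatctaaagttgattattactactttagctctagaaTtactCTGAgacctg
SNORD50B, guide of 28S positions 2861 and 2876: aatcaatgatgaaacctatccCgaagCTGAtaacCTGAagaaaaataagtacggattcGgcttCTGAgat
SNORD24, guide of 28S positions 2351 and 2365: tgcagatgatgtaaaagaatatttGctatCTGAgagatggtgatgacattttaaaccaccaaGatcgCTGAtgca
In GRCh38 these genes lie at chr9:122880213-122880323 (SNORD90, minus strand, an intron of RC3H2), chr14:45110883-45110968 (SNORD127, plus strand, an intron of PRPF39), chr1:75787889-75787972 and chr1:75787072-75787150 (SNORD45A and SNORD45C, plus strand, both within RABGGTB), chr6:85677589-85677658 (SNORD50B, minus strand, within SNHG5) and chr9:133349396-133349470 (SNORD24, plus strand, within RPL7A). For the last 4 an exon of at least 1 transcript of the host gene overlaps the snoRNA. SNORD45A and SNORD45C share the bases before their last CTGA, and at the first CTGA the marked base is A in SNORD45A and G in SNORD45C. Guides were assigned to 90 of the 110 positions from background knowledge and fall into 83 families, of which 72 have a sequence in GENCODE.

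The levels were high at most positions and graded rather than all or none. The median over the 110 positions of the mean of Mock and SCR was 0.886. With complete defined as a mean level of at least 0.9 and low as a mean below 0.5, 42 positions were complete, 62 partial and 6 low. Of the complete positions 16 reached 0.95. Among the partial positions 39 lay from 0.8 to below 0.9, 15 from 0.7 to below 0.8 and 8 from 0.5 to below 0.7. Both libraries placed 101 positions in the same class, 40 as complete, 55 as partial and 6 as low.

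**Figure D1:**
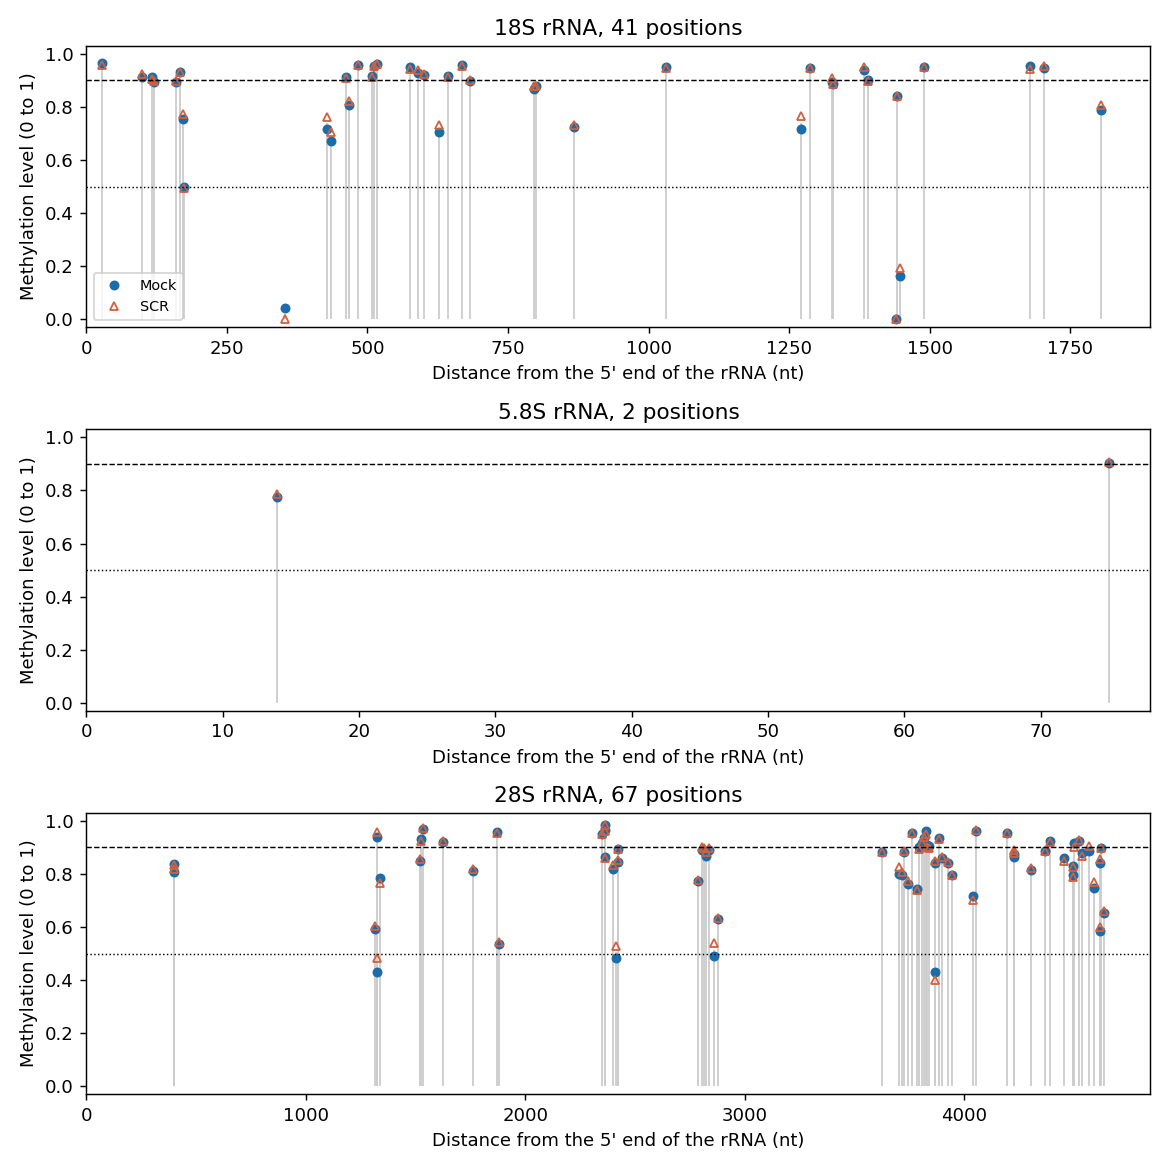
Methylation level (0 to 1) of every listed position against its distance in nucleotides from the 5′ end of 18S, 5.8S and 28S rRNA. Circles are Mock, open triangles SCR, and the dashed and dotted lines mark levels of 0.9 and 0.5. The circles and triangles nearly coincide along the rRNAs, and 18S positions 354, 1440 and 1447 stand near the bottom of the 18S panel.

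The class limits fall in a continuous range of values, so the counts of complete and low positions are set by where the lines are drawn. Just above 0.9 stood position 1326 of 18S (0.893 in Mock, 0.910 in SCR), followed in 28S by 3841 (0.907 in Mock, 0.898 in SCR) and 3830 (0.907 in Mock, 0.902 in SCR). Just below it stood 683 (0.896 in Mock, 0.902 in SCR) and 1391 (0.9002 in Mock, 0.898 in SCR) of 18S, then 4623 of 28S (0.899 in Mock, 0.898 in SCR). Around 0.5 the values were sparser. Just above it lay 28S positions 2415, 2861 and 1881, and the nearest below were position 174 in 18S and, in 28S, 1323 and 3867. The 9 positions whose class differed between Mock and SCR included 3 of 18S (683, 1326 and 1391). The upper limit also divided the libraries at 4 of 28S, namely 2804 (0.889 and 0.902), 3792 (0.902 and 0.893), 3841 and 4571 (0.887 and 0.907). The lower limit did so at 2415 and 2861 of 28S.

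The 6 low positions were 4 in 18S and 2 in 28S rRNA. 18S position 1440, for which no guide was assigned, was listed at 0 in both libraries. 18S position 354, the target of SNORD90, was at 0.0427 in Mock and listed at 0 in SCR. 18S position 1447, the target of SNORD127, was at 0.163 in Mock and 0.193 in SCR. These 3 stand apart from the other 107, since the next lowest mean was 0.415. That was 28S position 3867, with 0.432 in Mock and 0.399 in SCR and no guide assigned. 28S position 1323, also without an assigned guide, was at 0.431 and 0.485. 18S position 174, a target of SNORD45C, was at 0.497 and 0.493. The labels and table do not say how a listed 0 was set, so whether position 1440 carries any methyl group in these cells was not tested.

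The lowest of the partial positions were mostly in 28S rRNA, which holds 45 of the 62 partial positions. The libraries gave nearly the same level at several of the lowest ones. However, 28S positions 2415 and 2861 and 18S positions 436 and 627 were among the 10 largest differences between the libraries. 28S position 2415, without an assigned guide, was at 0.483 in Mock and 0.530 in SCR. 28S position 2861, a target of SNORD50, was at 0.489 and 0.539. 28S position 1881, a target of SNORD48, was at 0.536 and 0.545. Levels then rose through 28S position 4618, a target of SNORD91 (0.587 and 0.601), and 28S position 1316, a target of SNORD21 (0.594 and 0.603). These were followed by 28S position 2876, a target of SNORD50 (0.630 and 0.634), and 28S position 4637, a target of SNORD121 (0.652 and 0.662). 18S position 436, a target of SNORD100, was at 0.672 and 0.705. The last of these 10 were 28S position 4042, a target of SNORD102 (0.717 and 0.701), and 18S position 627, a target of SNORD65 (0.704 and 0.731). Of these 10 positions, 2 were in 18S rRNA and 8 in 28S rRNA.

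At the other end, the highest level was at 28S position 2364, with 0.985 in Mock and 0.984 in SCR. Its direct neighbour 28S position 2363, a target of SNORD76, was at 0.965 and 0.964. 28S position 1534, a target of SNORD77, was at 0.969 and 0.973, 28S position 4054, a target of SNORD75, at 0.964 and 0.964, and 28S position 3825 at 0.961 and 0.952. In 18S rRNA the highest was position 517, a target of SNORD56, with 0.961 and 0.964. Position 27, a target of SNORD27, was at 0.964 and 0.959, position 484 (SNORD16) at 0.957 and 0.958, position 668 (SNORD36) at 0.959 and 0.954 and position 512 (SNORD70) at 0.955 and 0.955. 28S position 2364 was the highest and 28S position 1534 the next in each library, whereas 18S positions 517 and 27 changed places between Mock and SCR.

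**Figure D2:**
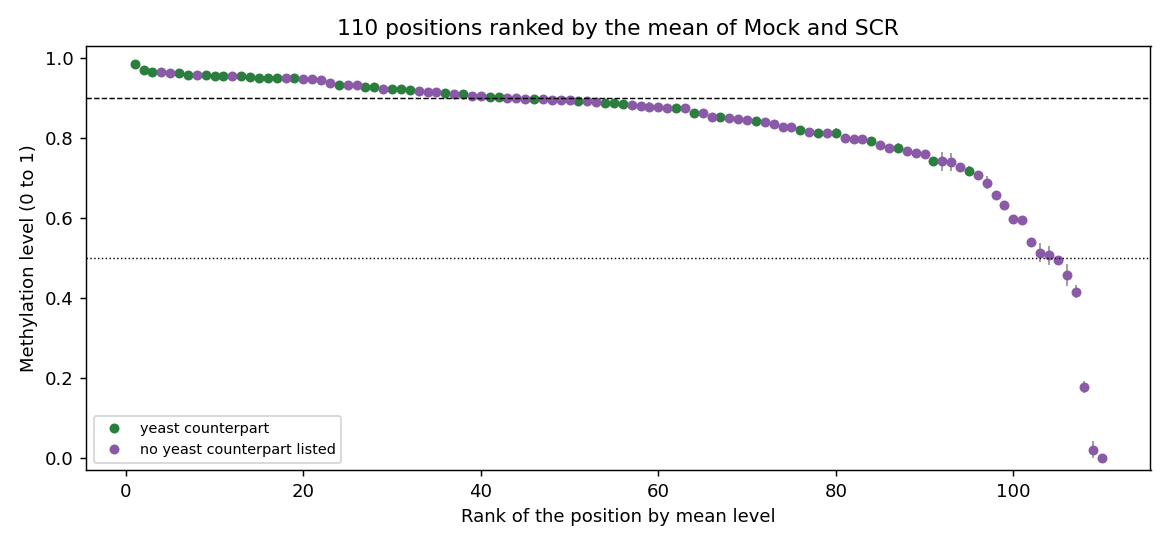
The 110 positions ranked by the mean of Mock and SCR (points, level from 0 to 1), with vertical lines from the lower to the higher library. Green points have a counterpart in yeast rRNA and purple points have none listed. The curve passes 0.9 after rank 42 and 0.5 after rank 104, and all 6 low positions are purple.

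By the median, 18S rRNA was methylated more fully than 28S rRNA. The median level was 0.901 over the 41 positions of 18S and 0.875 over the 67 of 28S. Of the 18S positions 51.2% were complete, compared with 29.9% of the 28S positions and 38.2% of all 110. The mean over positions gave the opposite order, 0.816 for 18S and 0.830 for 28S, and the 3 positions near 0 were all in 18S. Among positions with a mean level of at least 0.5, the median of 18S exceeded that of 28S by 0.0357, compared with 0.0265 over all positions.

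Along 18S rRNA the stretch from position 27 to 644, which falls in the 5′ domain, had 13 complete, 7 partial and 2 low positions among 22 and a median of 0.913. It held an uninterrupted series of 7 complete positions (484, 509, 512, 517, 576, 590 and 601), with mean levels from 0.914 to 0.962. This series was picked out after its values were seen. The 6 positions from 668 to 1031, in the central domain, had a median of 0.889 and included 18S position 867, a target of SNORD98, at 0.725 in Mock and 0.732 in SCR. The 13 positions from 1272 to 1804, in the 3′ domains, had a median of 0.899, with 6 complete, 5 partial and 2 low. Positions 1440 and 1447 stand on either side of position 1442, a target of SNORD61, which was at 0.841 in Mock and 0.8399 in SCR.

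Along 28S rRNA the medians of the stretches were 0.835 for the 13 positions from 398 to 1881, 0.876 for the 15 from 2351 to 2876, 0.883 for the 19 from 3627 to 3944 and 0.876 for the 20 from 4042 to 4637. The first stretch held 5 complete positions, among them 28S position 1871 (SNORD38) at 0.957 and 0.954. It also held 28S positions 1316, 1323 and 1881, described above among the low and the lowest partial positions. In the second stretch only 28S positions 2351, 2363 and 2364 were complete. The third held 7 complete positions, 5 of them in succession from 3808 to 3841, with mean levels from 0.903 to 0.956. This series too was picked out after its values were seen, and its last position, 3841, was at 0.898 in SCR. In the last stretch, which includes the peptidyl transferase region, 5 positions were complete and 15 partial, and none was low.

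**Figure D3:**
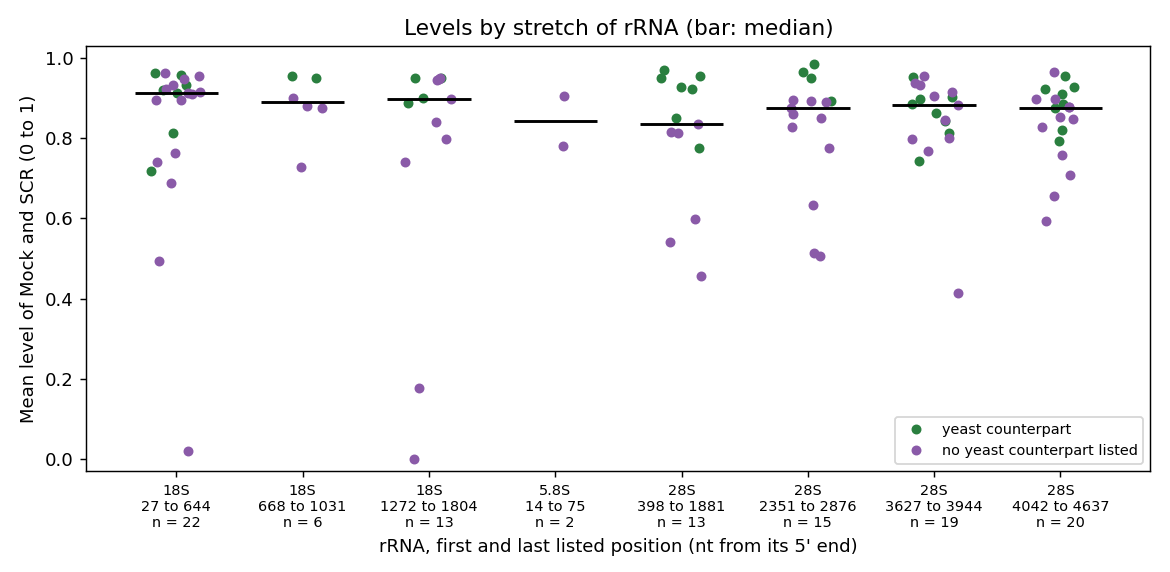
Mean level of Mock and SCR (0 to 1) for each position, grouped by stretch of rRNA with its first and last listed position, and the median of the stretch as a black bar. Green points have a yeast counterpart and purple points have none listed. The medians lie between 0.835 and 0.913, and the points below 0.5 are spread over 4 stretches.

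The functional centres of the ribosome held both complete and partial positions. 28S position 4196, in the P loop that holds the end of the peptidyl tRNA, was at 0.954 in Mock and 0.956 in SCR. 28S position 3760, in helix 69, which reaches across to the small subunit at the decoding site, was at 0.953 and 0.954. 18S position 1703, in helix 44 near the decoding site, was at 0.949 and 0.953. In the A loop, which holds the end of the incoming tRNA, 28S position 4499 was at 0.917 and 0.902 and its direct neighbour 28S position 4498 was at 0.795 and 0.790. 28S position 4499 is known as a target of the stand-alone methyltransferase FTSJ3, for which no guide is needed. 18S position 627, in the loop of helix 18 at the decoding site, was the lowest of the 6, at 0.704 and 0.731. Of these 6 positions 4 were complete, or 66.7%, compared with 38.2% of all positions. All 6 have a counterpart in yeast rRNA, and of the 40 positions with such a counterpart 60.0% were complete.

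Positions with a counterpart in budding yeast were more fully methylated than the rest. A counterpart is a methylated nucleotide at the aligned place of yeast rRNA, assigned from background knowledge. The list was chosen with earlier results of these data known. The 40 positions with a counterpart had a median of 0.915, with 24 complete, 16 partial and 0 low, and the lowest was 18S position 627 at a mean of 0.718. The 70 positions without a listed counterpart had a median of 0.852, with 18 complete, 46 partial and 6 low. The share of complete positions was 60.0% with a counterpart and 25.7% without, beside 38.2% of all 110. Within 18S rRNA 10 of 13 positions with a counterpart were complete and 11 of 28 without. Within 28S rRNA the counts were 14 of 27 and 6 of 40. The difference in medians, 0.0634, kept its direction in each library (0.0628 in Mock and 0.0618 in SCR), and between positions with a mean of at least 0.5 it was 0.0402. Positions are not replicates of a condition, so no p-value is attached.

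Exceptions stood on both sides. Among positions with a counterpart, 28S position 3785, a target of SNORD15, was at 0.744 in Mock and 0.741 in SCR. 28S position 1340, a target of SNORD104, was at 0.787 and 0.764, and 28S position 3701, a target of SNORD88, was at 0.8001 and 0.826. Among those without a listed counterpart, 28S position 4054 and 18S position 517 were among the highest of the table. The 18S positions 1288 (SNORD110; 0.948 and 0.946), 1383 (SNORD30; 0.940 and 0.9502) and 1678 (SNORD82; 0.956 and 0.943) were complete as well.

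The positions with an assigned guide had a median of 0.892 (90 positions, 37 complete, 50 partial and 3 low). The 20 positions without one had a median of 0.863 (5 complete, 12 partial and 3 low). The difference in medians, 0.0292, was 0.0178 between positions with a mean of at least 0.5, and the difference in means was 0.0607. No guide being assigned means only that none was known with certainty here. Of those 20 positions, 15 also had no listed yeast counterpart, beside 70 of all 110. All 6 low positions of the table lack a listed counterpart, so the 3 low ones without a guide necessarily fall among these 15. Among the positions that had a guide but no listed yeast counterpart, 15 of 55 were complete, compared with 22 of 35 that had both.

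Positions served by the same guide family did not have the same level. For 7 families that serve 2 or 3 listed positions each, 15 positions in all, the median range within a family was 0.0869, beside a median gap of 0.0875 between all pairs of positions in the table. The SNORD45 family showed the widest range. 18S position 159 was at 0.892 in Mock and 0.897 in SCR, position 172 at 0.754 and 0.773, and position 174 at 0.497 and 0.493. SNORD45A and SNORD45C, printed above, both carry the stretch for position 159. Both also read gttggcatgtatt ahead of their first CTGA. In SNORD45A the bases at stand between this stretch and CTGA, so the marked base differs while the stretch is shared. The range within this family was 0.3996, against differences between the libraries of at most 0.0191 at the same positions.

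SNORD50 serves 28S position 2861 (0.489 in Mock and 0.539 in SCR) and position 2876 (0.630 and 0.634), both among the lowest of 28S. SNORD24 serves 28S position 2351 (0.951 and 0.9497) and position 2365 (0.863 and 0.860). Across the subunits, SNORD36 serves 18S position 668 (0.959 and 0.954) and 28S position 3724 (0.884 and 0.886). SNORD32 serves 18S position 1328 (0.886 and 0.888) and 28S position 1524 (0.931 and 0.926), which SNORD51 also targets. SNORD68 serves 18S position 428 (0.717 and 0.764) and 28S position 2401 (0.819 and 0.835). The narrowest range, 0.0150, was that of SNORD95, with 28S position 2815 at 0.885 and 0.896 and position 2824 at 0.869 and 0.883. In each of the 7 families the positions kept their order in both libraries.

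**Figure D4:**
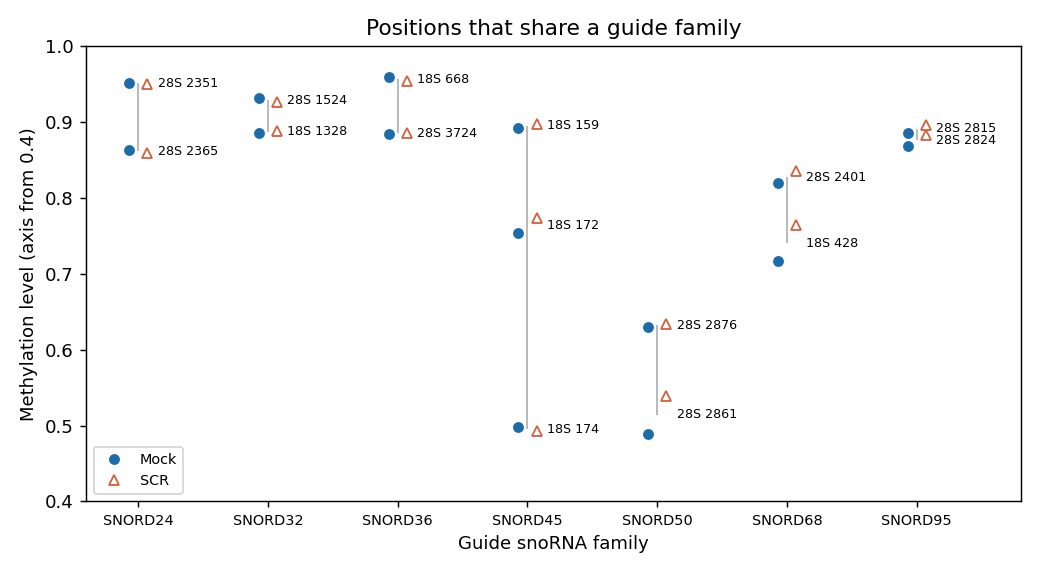
Methylation level (axis from 0.4 to 1) of the 15 positions that share a guide family with another, for Mock (circles) and SCR (open triangles), with a grey line over the range of the means in each family. The 3 positions of SNORD45 span 0.495 to 0.895, and those of SNORD95 0.876 to 0.891.

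Listed positions often lie close to each other, and their levels could differ sharply over a few nucleotides. In 18S and 28S rRNA there were 24 pairs of consecutive positions within 6 nucleotides. The median gap in level was 0.0643 for these pairs, no larger than the 0.0701 of the 82 consecutive pairs farther apart within 18S and 28S rRNA. 18S position 1442 exceeded position 1440, which lies 2 nucleotides before it, by 0.841. 18S position 1447 was lower than position 1442 by 0.663, 5 nucleotides apart. 28S position 1326, a target of SNORD18, was at 0.940 in Mock and 0.959 in SCR, 3 nucleotides from position 1323. 28S position 3869 was at 0.840 and 0.851, 2 nucleotides from position 3867. The adjoining 28S positions 4227 and 4228 had almost the same mean, 0.877 and 0.878.

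The 42 positions with another listed position within 6 nucleotides had a median of 0.877 and the 68 others a median of 0.894. With a distance of 15 nucleotides in place of 6 the direction turned, positions with a neighbour being higher by 0.00144. Of the 6 low positions 5 had such a neighbour, and 18S position 354 had none. The score at a position is commonly computed from fragment ends at its flanks, and the part of this in the low levels beside methylated neighbours was not tested.

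The differences between Mock and SCR were small at most positions. The root mean square difference was 0.0155, and the median absolute difference 0.00603, over 110 positions. A difference of at least 0.02 was seen at 14 positions (12.7%) and one of at least 0.05 at 1 position (0.909%), 28S position 1323. Pearson's r between the libraries across the 110 positions was 0.997 and Spearman's rho 0.992, and within the 42 complete positions rho was 0.938. These points share 2 libraries, so the correlations only describe them.

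The size of the difference depended on the level. The median absolute difference was 0.00451 over the complete, 0.00952 over the partial and 0.0315 over the low positions. In the 16 positions at or above 0.95 no difference exceeded 0.0089, whereas it reached 0.0546 below 0.5. The 10 largest differences made up 66.1% of the summed squared difference, and all 10 were at positions with a mean below 0.8, of which there were 29. In 28S rRNA they fell on 1323, 2861, 2415 and 3867, and in 18S rRNA on 1272, 428, 354, 436, 1447 and 627. Of those not yet given, 18S position 1272, a target of SNORD66, was at 0.718 in Mock and 0.765 in SCR. Over the other 100 positions the root mean square difference was 0.00948.

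The differences were also uneven in sign. SCR was higher at 67 positions, lower at 42 and equal at 1, with a mean difference of 0.00506 and a standard deviation of 0.0148 across positions. Among the partial positions SCR was higher at 47 and lower at 15, and at all 8 positions with a mean from 0.5 to below 0.7 it was higher. Among the complete positions SCR was higher at 18 and lower at 24. Of the 10 largest differences 8 were higher in SCR, the exceptions being 18S position 354 and 28S position 3867. With 1 library of each label, a difference between treatments and one between library preparations cannot be told apart.

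**Figure D5:**
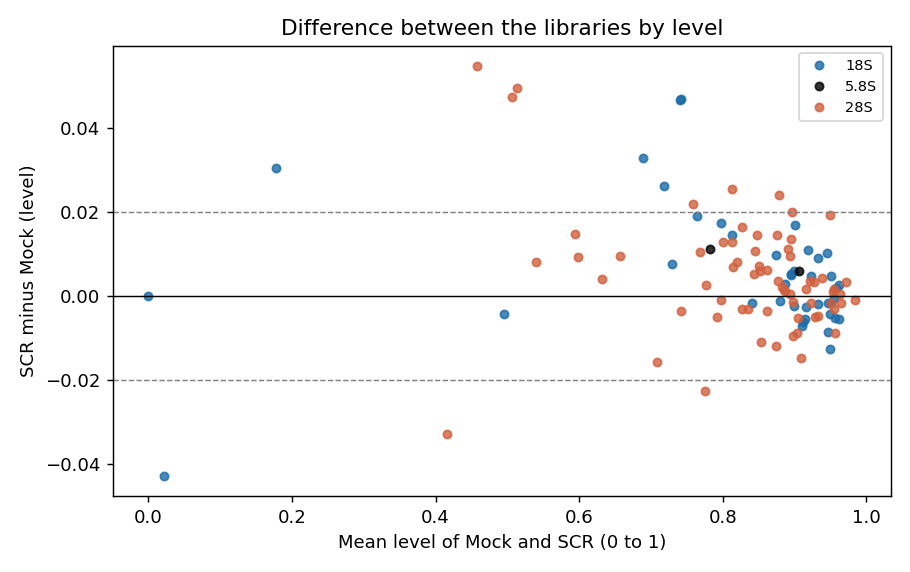
SCR minus Mock (difference in level) against the mean level of the 2 libraries for the 110 positions, coloured by rRNA, with dashed lines at 0.02 and -0.02. The points narrow toward high levels, and the 8 points between 0.5 and 0.7 all lie above 0.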

How the data were processed

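RiboMethSeq levels of Mock and SCR were read from the 1 deposited table. Per the labels' protocols, total RNA was treated with DNase, fragmented by alkali and turned into small RNA libraries. The values the authors deposited are fractions from 0 to 1 per position and library. The submitters' processing notes name Bowtie2 2.3.5.1, SAMtools 1.15.1, Trimmomatic 0.39 and FastQC 0.11.9. The sources used here give neither the formula of the level nor the rRNA reference. Methylated neighbours can alter a level, and a listed 0 may be a bounded score. No counts are given, so no counting intervals could be computed. 

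The level of a position is the mean of both libraries, as deposited. Positions were counted by class, list and distance, with no test. Guides, yeast counterparts and functional centres come from background knowledge. snoRNA and 5.8S sequences and coordinates come from GENCODE release 29 (GRCh38). No 18S or 28S sequence was used, so levels by nucleotide were not analysed here. The positions and lists were chosen with earlier results of these data known, and the guide of 28S position 2401 was added after the levels were seen. Named positions were the low ones, the 10 lowest partial ones, the 5 highest of 18S and of 28S, both of 5.8S, the 10 largest differences, 3 on each side of a limit, the functional centres, those sharing a guide and those whose class differed between libraries. Further positions were named as examples after their values were seen. Counting rules were tested on simulated data. Alternatives were other limits, single libraries, means in place of medians, other neighbour distances, a logit scale (bounded at 0.01 and 0.99) and a median shift. Python 3.11.15, pandas 2.3.3 and matplotlib 3.10.9 were used.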

Additional observations from a re-analysis of the deposited data

How the results depend on the processing

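The count of complete positions, 42 with a limit of 0.9, was 81 with 0.8, 68 with 0.85 and 16 with 0.95, and 40 when both libraries had to reach 0.9. Low positions, 6 below 0.5, numbered 3 below 0.3 and below 0.4, 11 below 0.6, and 6 in SCR alone and 8 in Mock alone. The excess of the 18S over the 28S median, 0.0265, was -0.0145 with means over positions and 0.0428 with means over positions of at least 0.5, a choice added after seeing the data. It was 0.0357 with medians of positions of at least 0.5, and 0.0344 to 0.0379 with 1 library left out. The excess of positions with a yeast counterpart, 0.0634, was 0.115 with means, 0.0402 with positions of at least 0.5, and 0.0618 to 0.0628 with 1 library left out. The median range within guide families, 0.0869, was 0.0719 in SCR alone and 0.0883 in Mock alone, and 0.0803 without SNORD68, likewise added after seeing the data. Positions with a neighbour were lower by a difference in medians of -0.0167 within 6 nucleotides and -0.0437 within 2, and higher by 0.00144 within 15, so this direction depends on the distance chosen. The typical difference between Mock and SCR was 0.00603 by the median absolute difference and 0.180 as a root mean square on the logit scale. Positions differing by at least 0.02 numbered 14, and 38, 9 and 1 passed 0.01, 0.03 and 0.05. Of the 36 alternatives run on the medians of stretches and of positions with a guide, 24 moved the value by no more than the spread between libraries and 12 by more. Of all 73 alternatives, only 39 kept the value within the limit set for it and 2 reversed the direction. The rest moved the value further. The depth of the libraries is unknown, so how far it limits the low levels was not tested. No paired analysis was possible because each label has 1 library.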
